A study of Homo sapiens with 18 samples.

Results

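The MYC network comprises the transcription factors MYC and MYCN, their obligate partner MAX, the MAX-binding repressors MXD1, MXD3, MXD4, MXI1 and MNT, the MAX-binding scaffold protein MGA, and the MAX-like factor MLX. Its mRNAs were followed here by their gene symbols in the count tables, and all 10 members were found among the 23368 gene rows. The cells were SJSA-1, an osteosarcoma line with amplified MDM2 and CDK4, and RNA was sequenced from 6 groups of 3 replicates. DMSO was the control, and Nutlin, an inhibitor of MDM2, was given at 20 µM for 6 h. PD0332991 (Palbociclib), an inhibitor of CDK4 and CDK6, was given at 10 µM for 24 h and then removed (PD24) or for 30 h (PD30), and N+PD24 and N+PD30 combined Nutlin with either schedule. All groups came from a single cell line in culture, and the study describes the replicates as biological.

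MYC and MYCN activate transcription as dimers with MAX at E-box DNA, and drive ribosome biogenesis, nucleotide synthesis and cell growth. MXD proteins, MXI1 and MNT compete for MAX, bind the same DNA and recruit SIN3 and histone deacetylases to repress it. Several MXD genes are known for their use during exit from proliferation, while MXD3 is used in S phase, and MLX pairs with MondoA and ChREBP in glucose sensing and also binds MNT, MXD1 and MXD4.

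Total counts per library ranged from 12704845 (N+PD30 replicate 1) to 40231041, with a median of 29608936. Of 9 osteoblast lineage markers, COL1A1 (1122 to 3697 CPM, counts scaled to a common library total), SPARC (1398 to 2904 CPM) and RUNX2 (18.2 to 34.5 CPM) were present in all libraries, whereas SP7, BGLAP and IBSP did not exceed 0.244, 0.221 and 0.131 CPM. Of the 6 that were tested, 2 were higher and 0 lower in Nutlin against DMSO, with COL1A1 at a log2 fold change of 0.64 ± 0.23 SE (adjusted p = 0.0363), and 2 were higher and 0 lower in N+PD30 against Nutlin, with SPP1 at 0.89 ± 0.33 (adjusted p = 0.045). Over the alternatives these were 0 to 4 higher and 0 to 1 lower in the first comparison and 1 to 2 higher and 0 to 1 lower in the second. Of all genes, 26.6% were higher and 28% lower in the first and 24.3% and 24.7% in the second. RUNX2 stood at 23.2 to 23.7 CPM in Nutlin, below its 28.3 to 32.8 CPM in DMSO. Of 8 markers of other cell types, KRT18, a keratin of simple epithelia, reached 79.8 to 251 CPM, and the next highest, PECAM1 and GFAP, did not exceed 2.36 and 1.17 CPM. Among the 4 of these tested, 2 were higher and 1 lower with Nutlin (KRT18 -0.46 ± 0.14, adjusted p = 0.0174 on the log2 scale), and 0 were higher and 2 lower in N+PD30 against Nutlin. GFAP is in both counts, but it passed the filter on low values mainly through the Nutlin libraries, and no direction is read from it. Their part in the results was not tested.

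CDKN1A, which encodes the CDK inhibitor p21, rose with Nutlin (log2 fold change 4.56 ± 0.16, adjusted p = 1.65e-07). MDM2, the target of Nutlin, fell in N+PD30 against Nutlin (-1.70 ± 0.17, adjusted p = 2.53e-05). All 12 genes of a cell cycle list fell in PD30 against DMSO, beside 25.4% of all genes. In Nutlin against DMSO 8 of them fell, beside 28% of all genes, led by the cyclin CCNE2 (-3.25 ± 0.22, adjusted p = 3.54e-06). CDK1, the mitotic kinase, fell most of them in N+PD30 against Nutlin (-6.95 ± 0.28, adjusted p = 2.5e-08). In bulk RNA, fewer cells of a kind and less RNA per cell cannot be told apart.

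Members were called at a Benjamini-Hochberg adjusted p under 0.05 over all genes tested. MYCN passed the filter only through the DMSO or Nutlin libraries, where it was high. Its calls against the groups with PD0332991 are therefore not read as results, and in comparisons with them the counts and medians cover the other 9 members. Nutlin alone lowered MYC, MLX and MXI1, which is 3 of 10 members, beside 54.6% of all genes called, 28% lower and 26.6% higher. PD30 against DMSO raised 6 of 9 members (MXD1, MNT, MXI1, MYC, MAX and MLX) and lowered MXD3, beside 48.3% of all genes called, 22.9% higher and 25.4% lower. PD24 against DMSO raised MYC, MLX and MAX and lowered MXD3, beside 38.3% of all genes called, 17.5% higher and 20.8% lower. The median log2 fold change of the members was -0.21, 0.40 and 0.19 in these comparisons, and that of all genes was 0.03, 0.00 and 0.02. The 3 comparisons share the DMSO libraries.

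With Nutlin present, continuous inhibitor (N+PD30 against Nutlin) raised MNT, MXD4, MLX and MXI1 and lowered MGA and MXD3, beside 49% of all genes called, 24.3% higher and 24.7% lower. Inhibitor that had been removed (N+PD24 against Nutlin) raised MYC and MLX and lowered MXD3, beside 33.8% of all genes called, 16.9% in each direction. The median of the members was 0.44 and -0.19, and that of all genes was 0.00 and 0.02. Both comparisons share the Nutlin libraries.

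With an absolute log2 fold change over 1 also required, 1 member remained in Nutlin against DMSO (20.8% of all genes), 1 in PD30 against DMSO (15.2%), 2 in PD24 against DMSO (12.6%), 1 in N+PD30 against Nutlin (22.3%) and 2 in N+PD24 against Nutlin (11.8%). Among the groups with PD0332991, 1 remained in N+PD30 against PD30 (3.68% of all genes), 1 in N+PD24 against PD24 (15.9%), 0 in PD24 against PD30 (7.49%) and 3 in N+PD24 against N+PD30 (13.1%). No member passed this limit in the interactions of Nutlin with PD30 (10.2%), with PD24 (0.764%) and with removal (8.63%).

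**Figure D1:**
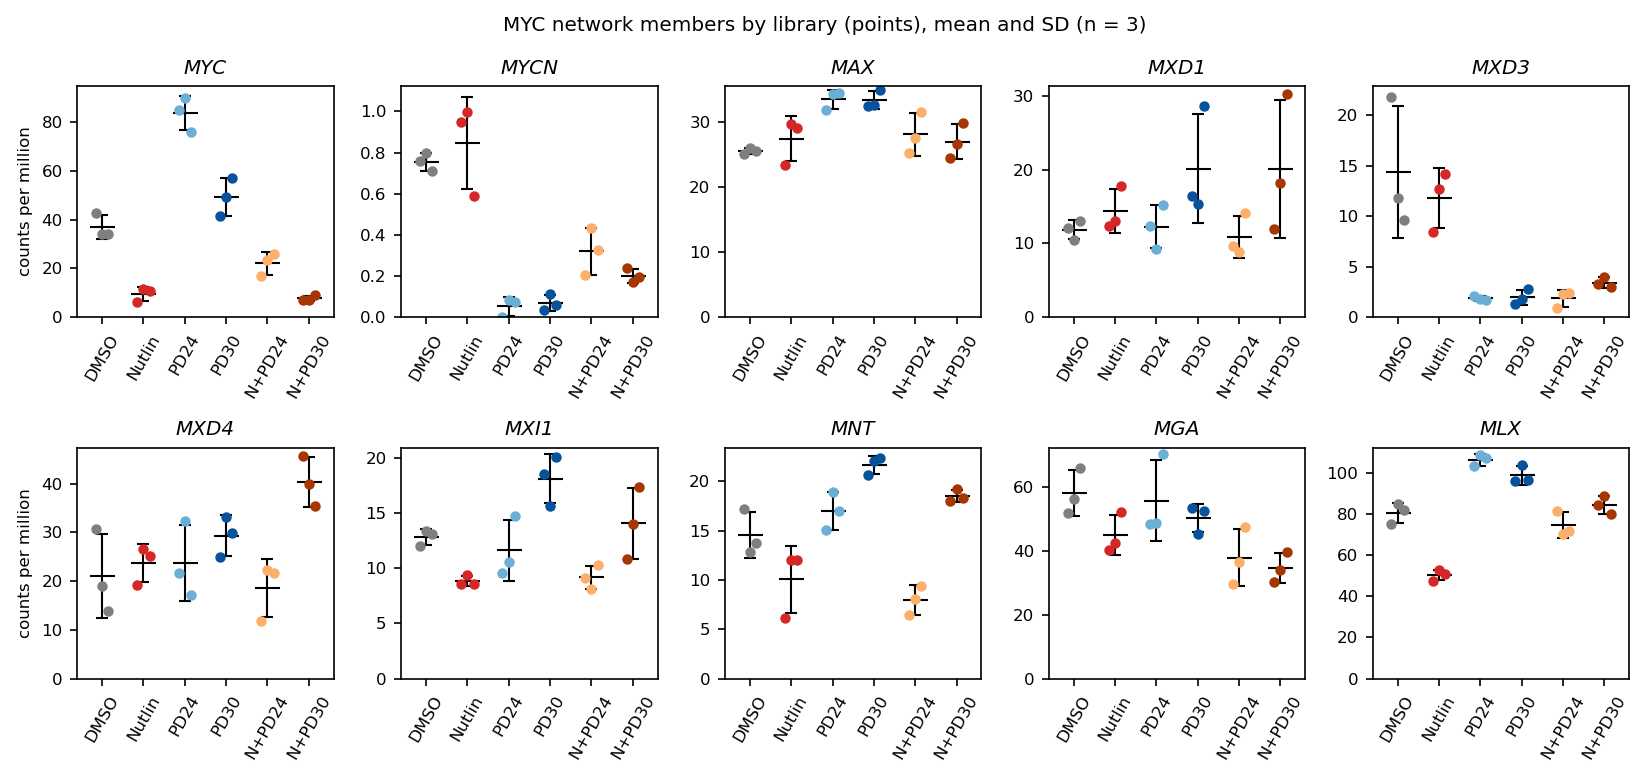
CPM of each member (panels) in each library (points), with the mean and SD of the 3 libraries of a group as bars, on axes that start at 0. MYC ranged from 6.19 CPM in a Nutlin library to 90.0 CPM in a PD24 library, and MXD3 was low in all 4 groups that received PD0332991. MYCN had few reads in all groups.

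MYC (chromosome 8, 128747680 to 128755197, + strand, GRCh37) had the widest range of group means on the log2 scale with 0.1 CPM added (3.43). With nothing added, the highest group mean was 10.9-fold the lowest for MYC and 16-fold for MYCN, whose lowest group held 0 to 3 counts a library. MYC measured 42.8, 34.2 and 34 CPM in DMSO, 84.8, 90.0 and 76.1 CPM in PD24, and 41.4, 49.1 and 57.1 CPM in PD30. It measured 6.19, 11.6 and 10.5 CPM in Nutlin, 16.8, 23.4 and 25.9 CPM in N+PD24, and 6.85, 7.19 and 8.91 CPM in N+PD30. The group means therefore ran PD24 (83.6 ± 7 SD, n = 3), PD30 (49.2 ± 7.83), DMSO (37 ± 5.05), N+PD24 (22 ± 4.66), Nutlin (9.43 ± 2.85) and N+PD30 (7.65 ± 1.1). Neighbours in this order did not overlap, except PD30 with DMSO and Nutlin with N+PD30.

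Nutlin lowered MYC without the inhibitor and with both schedules of it. The log2 fold change was -1.85 ± 0.21 (adjusted p = 6.45e-05) without it, -1.80 ± 0.16 (adjusted p = 2.81e-05) in N+PD24 against PD24, and -2.59 ± 0.16 (adjusted p = 5.65e-05) in N+PD30 against PD30. N+PD30 against PD30 called 14.5% of all genes, 8.84% higher and 5.64% lower, and 2 of 9 members (MYC and MGA), both lower. N+PD24 against PD24 called 36.9% of all genes, 16.9% higher and 20% lower, and 3 of 9 members (MYC, MNT and MLX), all lower. The interaction of Nutlin with PD30, which measures how far the responses to Nutlin with and without PD30 differ, called 19.8% of all genes. It was -0.70 ± 0.29 (adjusted p = 0.112) for MYC, and -0.93 (adjusted p = 0.0138) without Nutlin replicate 1.

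The interaction of Nutlin with PD24 called 0.898% of all genes (0.546% higher and 0.352% lower) and, by limma, 0 of 9 members. At an unadjusted p under 0.05, 0 of these 9 passed by limma and 0 by edgeR on recovered reads. With the replicate block MAX and MXD1 passed by both, and MAX also under quantile normalization and with no filter on low values. Leaving out a replicate let MAX, MXD1, MXD4 or MNT pass in some fits. In all these settings 0 passed at an adjusted p under 0.05. For MYC it was 0.09 ± 0.29 (adjusted p = 0.942).

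Removal of the inhibitor went with higher MYC, both without Nutlin (PD24 against PD30, 0.80 ± 0.14, adjusted p = 0.00349) and with it (N+PD24 against N+PD30, 1.61 ± 0.18, adjusted p = 0.000394). PD24 against PD30 called 25.2% of all genes (12.9% higher and 12.2% lower), and of 9 members MYC higher and MXI1 lower. N+PD24 against N+PD30 called 31.5% of all genes (15.9% higher and 15.6% lower), and of 9 members MYC higher and MNT and MXD4 lower. The difference between both effects of removal was 0.75 ± 0.24 (adjusted p = 0.0482) on the log2 scale (limma), in a comparison added after the first results that called 14.4% of all genes (5.53% higher and 8.89% lower) and of 9 members MYC and MNT. MYC lost this call when PD24 replicate 1, 2 or 3, PD30 replicate 2 or 3, N+PD24 replicate 2 or 3, or N+PD30 replicate 1 or 2 was left out (log2 values between 0.63 and 0.82, adjusted p between 0.064 and 0.11), and with total-count scaling, no filter on low values, 1 CPM added or all libraries in a single fit (log2 values between 0.66 and 0.75, adjusted p between 0.0626 and 0.081).

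Against DMSO, MYC rose with PD24 (1.2 ± 0.13, adjusted p = 0.000142) and with PD30 (0.40 ± 0.14, adjusted p = 0.0387). The latter call was lost without DMSO replicate 2 or 3 or PD30 replicate 2 or 3 and with all libraries in a single fit (log2 values between 0.29 and 0.41, adjusted p between 0.0822 and 0.135). Under Nutlin, N+PD24 raised MYC (1.31 ± 0.24, adjusted p = 0.00253), while N+PD30 against Nutlin gave -0.34 ± 0.23 (adjusted p = 0.246), and -0.57 (adjusted p = 0.0309) without Nutlin replicate 1, the Nutlin library with the lowest MYC.

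MYCN (chromosome 2, 16080672 to 16087129, + strand, GRCh37), a paralog of MYC known from neuroblastoma, had few reads. Its counts were 25, 23 and 22 in DMSO and 29, 30 and 16 in Nutlin. They were 0, 2 and 3 in PD24, 1, 4 and 2 in PD30, and 3, 5 and 4 in N+PD30. In CPM, MYCN measured 0.205, 0.433 and 0.325 in N+PD24 and 0.59 to 0.999 over DMSO and Nutlin, and no library with PD0332991 reached the libraries without it.

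From summed counts, MYCN was 14.1-fold higher in DMSO than in PD24 (95% exact interval 5.76 to 44.8) and 10.8-fold higher than in PD30 (4.98 to 27.9). It was 4.5-fold higher in Nutlin than in N+PD30 (2.43 to 9.09) and 2.54-fold higher than in N+PD24 (1.64 to 4.02). These intervals cover counting error only. MYCN passed the filter only through the groups where it was high, so its ratios describe the counts and are not read as results.

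MYCN did not pass the filter on low values in the 4 comparisons among groups with PD0332991, where 9 members were tested. By summed counts it was 6.29-fold higher in N+PD24 than in PD24 (2.42 to 20.8) and 2.72-fold higher in N+PD30 than in PD30 (0.988 to 8.16).

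MAX (chromosome 14, 65472892 to 65569413, - strand), the shared partner, had a highest group mean 1.31-fold above its lowest. MAX measured 25.1, 26 and 25.5 CPM in DMSO, 31.8, 34.3 and 34.4 CPM in PD24, and 32.5, 32.6 and 35 CPM in PD30, and 23.5 to 31.6 CPM in the groups with Nutlin. Both inhibitor groups lay above DMSO without overlap, and MAX rose in PD24 (0.42 ± 0.10, adjusted p = 0.012) and PD30 (0.37 ± 0.09, adjusted p = 0.00632). Without DMSO replicate 2, PD24 against DMSO was 0.43 (adjusted p = 0.0529). Without Nutlin replicate 1, MAX in Nutlin against DMSO changed from 0.23 ± 0.12 (adjusted p = 0.122) to 0.32 (adjusted p = 0.0254), and its interaction with PD30 from -0.39 ± 0.15 (adjusted p = 0.0918) to -0.49 (adjusted p = 0.0281).

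MXD3 (chromosome 5, 176728462 to 176739758, - strand), the MXD member used in S phase, measured 21.8, 11.8 and 9.57 CPM in DMSO and 8.42, 12.7 and 14.2 CPM in Nutlin, which overlapped (-0.17 ± 0.29, adjusted p = 0.644). It measured 2.1, 1.77 and 1.64 CPM in PD24, 1.27, 1.81 and 2.78 CPM in PD30, 0.902, 2.25 and 2.42 CPM in N+PD24, and 3.31, 3.96 and 2.95 CPM in N+PD30. Every library with PD0332991 lay below every library without it. DMSO replicate 1 held the highest MXD3 value of all, and without it the log2 fold change with Nutlin was 0.26 (adjusted p = 0.352).

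MXD3 fell in PD30 (-2.88 ± 0.36, adjusted p = 0.000161) and PD24 (-2.95 ± 0.32, adjusted p = 0.000142) against DMSO. It also fell in N+PD30 (-1.81 ± 0.23, adjusted p = 0.000114) and N+PD24 (-2.61 ± 0.33, adjusted p = 0.000334) against Nutlin. The N+PD30 libraries lay above the PD30 libraries without overlap (0.89 ± 0.29, adjusted p = 0.0733), where the replicate number as a block gave 0.90 (adjusted p = 0.0454), leaving out PD30 replicate 3 gave 1.25 (adjusted p = 0.031), and leaving out N+PD30 replicate 3 gave 1.02 (adjusted p = 0.0426).

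MXD3 shares 1148 exonic bases, 39.4% of its exon length, with PRELID1 on the opposite strand. PRELID1, a mitochondrial lipid carrier, was at -0.15 ± 0.13 (adjusted p = 0.375) in PD30 against DMSO and at -0.06 ± 0.15 (adjusted p = 0.746) in N+PD30 against Nutlin. The part of its reads in the MXD3 counts was not tested.

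For MYCN and MXD3, the 250 bases before the RefSeq start sites (GRCh38.p14) are shown, with the motifs found in capitals. Motifs were searched on both strands in windows from 250 bases before to 50 after the start. They were the E-box CACGTG, the E2F motifs TTGGCGC and TTCGCGC, the cell cycle element TTTGAA, and CCAAT. Of 35116 promoters, 7.26% held the E-box, 5.06% an E2F motif, 15.2% TTTGAA and 34.6% CCAAT. The MYCN sequence held both E2F motifs and TTTGAA, with one TTGGCGC overlapping a reversed TTCGCGC, and the MXD3 sequence held a reversed CCAAT.
MYCN, chr2:15940300-15940549, + strand: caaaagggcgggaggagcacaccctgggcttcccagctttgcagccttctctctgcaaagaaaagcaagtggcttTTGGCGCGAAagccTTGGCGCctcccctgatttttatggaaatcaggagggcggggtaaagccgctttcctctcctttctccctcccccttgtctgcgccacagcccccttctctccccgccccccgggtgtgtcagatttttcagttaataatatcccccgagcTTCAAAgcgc
MXD3, chr5:177312753-177313002, - strand: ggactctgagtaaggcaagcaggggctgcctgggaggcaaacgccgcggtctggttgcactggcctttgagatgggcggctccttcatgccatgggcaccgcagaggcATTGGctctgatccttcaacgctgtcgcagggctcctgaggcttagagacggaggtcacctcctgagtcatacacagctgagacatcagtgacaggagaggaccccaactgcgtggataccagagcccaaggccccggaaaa
Among the 9 members matched in the promoter table, 2 (MYCN and MXD4) held an E2F motif, 1 (MYCN) TTTGAA, 4 CCAAT and 3 (MXD4, MNT and MLX) the E-box. A match is a description of letters and was not tested as a binding site.

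MXD1 (chromosome 2, 70124820 to 70170077, + strand), an antagonist of MYC used in differentiating cells, measured 12.1, 10.4 and 13 CPM in DMSO and 16.4, 15.3 and 28.7 CPM in PD30. PD30 lay above DMSO without overlap, and MXD1 rose (0.75 ± 0.22, adjusted p = 0.021), but without DMSO replicate 2 the value was 0.67 (adjusted p = 0.0777). It spread widely in N+PD30, at 11.9, 18.1 and 30.2 CPM, and ranged over 8.8 to 17.7 CPM in Nutlin, PD24 and N+PD24. In PD24 against PD30, MXD1 was at -0.67 ± 0.25 (adjusted p = 0.0778), with the replicate number as a block at -0.65 (adjusted p = 0.00423), and without PD24 replicate 3 at -0.84 (adjusted p = 0.0465).

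In N+PD24 against Nutlin, MXD1 was at -0.34 ± 0.20 (adjusted p = 0.211), and with the block at -0.34 (adjusted p = 0.0194). Without N+PD30 replicate 1, MXD1 in N+PD30 against Nutlin changed from 0.44 ± 0.27 (adjusted p = 0.192) to 0.69 (adjusted p = 0.0231), and in N+PD24 against N+PD30 from -0.70 ± 0.29 (adjusted p = 0.0952) to -1.01 (adjusted p = 0.0152). Without Nutlin replicate 1, MXD1 in Nutlin against DMSO changed from 0.40 ± 0.16 (adjusted p = 0.0532) to 0.48 (adjusted p = 0.03).

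MXD4 (chromosome 4, 2249159 to 2263836, - strand), a repressor that also binds MLX, measured 45.7, 39.8 and 35.4 CPM in N+PD30. In Nutlin it measured 19.2, 26.7 and 25.2 CPM, and in N+PD24 11.8, 22.4 and 21.7 CPM. The N+PD30 libraries lay above all others, and MXD4 rose in N+PD30 against Nutlin (0.73 ± 0.17, adjusted p = 0.00417) and was lower in N+PD24 than in N+PD30 (-1.05 ± 0.23, adjusted p = 0.0081). N+PD30 against PD30 gave 0.55 ± 0.16 (adjusted p = 0.0503), the block gave 0.55 (adjusted p = 0.0365), and leaving out N+PD30 replicate 3 gave 0.66 (adjusted p = 0.0174).

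DMSO replicate 1 held 30.6 CPM of MXD4, against 18.9 and 13.8 CPM in the other DMSO libraries. Without it, MXD4 in Nutlin against DMSO changed from 0.29 ± 0.25 (adjusted p = 0.346) to 0.65 (adjusted p = 0.0177), and in PD30 against DMSO from 0.46 ± 0.25 (adjusted p = 0.163) to 0.83 (adjusted p = 0.00677). Without PD24 replicate 2, MXD4 in PD24 against PD30 changed from -0.27 ± 0.23 (adjusted p = 0.42) to -0.58 (adjusted p = 0.0455). In N+PD24 against Nutlin, the block changed MXD4 from -0.32 ± 0.23 (adjusted p = 0.32) to -0.32 (adjusted p = 0.0199).

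MXI1 (chromosome 10, 111967363 to 112047123, + strand), also named MXD2, measured 12.1, 13.4 and 13.1 CPM in DMSO, 8.55, 9.39 and 8.59 CPM in Nutlin and 18.6, 15.7 and 20.1 CPM in PD30. It measured 10.9, 14 and 17.3 CPM in N+PD30, and 8.15 to 14.8 CPM over PD24 and N+PD24. The Nutlin libraries lay below DMSO and the PD30 libraries above it. MXI1 fell with Nutlin (-0.41 ± 0.13, adjusted p = 0.0207), rose with PD30 (0.48 ± 0.12, adjusted p = 0.00974), and rose in N+PD30 against Nutlin (0.63 ± 0.18, adjusted p = 0.0129).

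The fall of MXI1 with Nutlin was not called without DMSO replicate 2 (-0.39, adjusted p = 0.0851), without Nutlin replicate 3 (-0.37, adjusted p = 0.0538), under quantile normalization (-0.20, adjusted p = 0.229) or with all libraries in a single fit (-0.42, adjusted p = 0.0512). Its rise in N+PD30 was at the threshold without Nutlin replicate 3 (0.58, adjusted p = 0.05). MXI1 was lower in PD24 than in PD30 (-0.60 ± 0.18, adjusted p = 0.0352), which was lost without PD24 replicate 1 or 2 or PD30 replicate 1 or 3 (log2 values between -0.59 and -0.47, adjusted p between 0.0831 and 0.109). Without N+PD30 replicate 1, MXI1 in N+PD24 against N+PD30 changed from -0.49 ± 0.18 (adjusted p = 0.0679) to -0.64 (adjusted p = 0.0239).

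MNT (chromosome 17, 2287367 to 2304398, - strand), the broadly expressed MYC antagonist, measured 20.6, 22 and 22.4 CPM in PD30 and 18, 19.2 and 18.3 CPM in N+PD30. It measured 17.2, 12.8 and 13.7 CPM in DMSO, 15.1, 18.9 and 17 CPM in PD24, 6.13, 12.1 and 12 CPM in Nutlin, and 6.43, 8.07 and 9.42 CPM in N+PD24. In CPM, which carry no TMM factor, the PD30 libraries lay above all others, and the N+PD30 libraries lay above those of Nutlin and N+PD24. The test, which uses TMM, did not call N+PD30 against PD30 (-0.13 ± 0.11, adjusted p = 0.42).

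MNT rose in PD30 against DMSO (0.56 ± 0.13, adjusted p = 0.00582) and in N+PD30 against Nutlin (0.84 ± 0.23, adjusted p = 0.0112). It fell in N+PD24 against PD24 (-0.95 ± 0.17, adjusted p = 0.00161) and was lower in N+PD24 than in N+PD30 (-1.12 ± 0.16, adjusted p = 0.00114). In PD24 against PD30 it was at -0.32 ± 0.13 (adjusted p = 0.111), and with the block at -0.32 (adjusted p = 0.0376). The effect of removal differed with Nutlin, by -0.84 ± 0.20 (adjusted p = 0.0143) on the log2 scale, and MNT was called in this comparison under all 20 alternatives.

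MGA (chromosome 15, 41913332 to 42065279, + strand), part of the PRC1.6 repressor complex, ranged over 51.9 to 66 CPM in DMSO, 40.4 to 52.4 CPM in Nutlin and 45.5 to 53.6 CPM in PD30. It measured 30.1, 34.2 and 39.6 CPM in N+PD30, below all DMSO, PD30 and Nutlin libraries. In PD24 it measured 48.4, 48.7 and 70.4 CPM, and in N+PD24 29.7, 36.7 and 47.4 CPM, which overlapped N+PD30. MGA fell in N+PD30 against Nutlin (-0.42 ± 0.14, adjusted p = 0.0267) and against PD30 (-0.45 ± 0.11, adjusted p = 0.0357). The first call was lost without Nutlin replicate 2 or 3 or N+PD30 replicate 1 or 2 and under scaling by total counts (log2 values between -0.44 and -0.32, adjusted p between 0.0591 and 0.106). The second was lost without PD30 replicate 1, 2 or 3 or N+PD30 replicate 1 or 2 (log2 values between -0.51 and -0.36, adjusted p between 0.0558 and 0.133).

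In N+PD24 against PD24, MGA was at -0.42 ± 0.19 (adjusted p = 0.104), with the block at -0.42 (adjusted p = 0.0036), and without N+PD24 replicate 3 at -0.58 (adjusted p = 0.044). Without Nutlin replicate 3, MGA in Nutlin against DMSO changed from -0.24 ± 0.12 (adjusted p = 0.116) to -0.34 (adjusted p = 0.0396).

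MLX (chromosome 17, 40719090 to 40725257, + strand), the partner of MondoA, measured 75.2, 84.6 and 81.6 CPM in DMSO, 47.6, 52.6 and 50.5 CPM in Nutlin, 103, 109 and 107 CPM in PD24, and 95.7, 104 and 96.2 CPM in PD30. In the combinations it measured 81.6, 70.1 and 71.6 CPM (N+PD24) and 84.1, 88.5 and 80.0 CPM (N+PD30). In CPM, which carry no TMM factor, the Nutlin libraries lay below all others, and PD24 and PD30 lay above all others. The TMM factors over all libraries ran from 0.912 (N+PD24 replicate 1) to 1.09 (PD30 replicate 1). The order of PD30 and the combinations therefore depends on the scaling.

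MLX fell with Nutlin alone (-0.55 ± 0.09, adjusted p = 0.000817). In N+PD30 against PD30 it was at -0.13 ± 0.10 (adjusted p = 0.377), and the interaction of Nutlin with PD30 was 0.47 ± 0.13 (adjusted p = 0.0228). MLX was the 1 member called in that interaction, beside 12.8% of all genes called higher and 7.03% lower. The call was lost without DMSO replicate 2, Nutlin replicate 1, PD30 replicate 1 or N+PD30 replicate 2 and under quantile normalization (log2 values between 0.31 and 0.44, adjusted p between 0.051 and 0.109).

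MLX rose in N+PD30 (0.71 ± 0.12, adjusted p = 0.000699) and N+PD24 (0.64 ± 0.12, adjusted p = 0.00287) against Nutlin, and in PD24 (0.42 ± 0.09, adjusted p = 0.00686) and PD30 (0.28 ± 0.08, adjusted p = 0.0199) against DMSO. The rise in PD30 was lost without DMSO replicate 1 (0.23, adjusted p = 0.0679) or PD30 replicate 2 (0.23, adjusted p = 0.0693). MLX fell in N+PD24 against PD24 (-0.38 ± 0.12, adjusted p = 0.0328), which was lost without PD24 replicate 1, 2 or 3 or N+PD24 replicate 2 or 3 (log2 values between -0.40 and -0.33, adjusted p between 0.0644 and 0.139).

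MLX shares 775 exonic bases, 30.0% of its exon length, with PSMC3IP on the opposite strand. PSMC3IP, a meiotic recombination factor, fell in PD30 against DMSO (-3.13 ± 0.14, adjusted p = 1.41e-07), where MLX rose, and in Nutlin against DMSO (-1.26 ± 0.14, adjusted p = 6.53e-05), where MLX fell. Its part in the MLX counts was not tested. MNT shares 21.4% of its exon length with a noncoding gene on the opposite strand, and every other overlap of exons covered at most 4.42% of a member.

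MNT, MXD4 and MLX, which rose in N+PD30 against Nutlin, are the members with an E-box in the window, and the 250 bases before their starts are given with motifs in capitals as above.
MXD4, chr4:2262110-2262359, - strand: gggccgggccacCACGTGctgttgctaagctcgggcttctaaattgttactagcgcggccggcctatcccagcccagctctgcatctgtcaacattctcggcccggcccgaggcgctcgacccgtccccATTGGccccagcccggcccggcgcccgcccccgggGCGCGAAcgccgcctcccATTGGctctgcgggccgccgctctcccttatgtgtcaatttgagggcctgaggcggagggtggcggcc
MNT, chr17:2401061-2401310, - strand: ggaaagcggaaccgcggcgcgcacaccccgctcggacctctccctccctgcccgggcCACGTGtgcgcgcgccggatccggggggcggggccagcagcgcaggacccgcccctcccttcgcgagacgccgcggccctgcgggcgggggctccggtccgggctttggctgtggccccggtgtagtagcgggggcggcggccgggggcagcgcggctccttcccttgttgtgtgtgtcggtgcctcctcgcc
MLX, chr17:42566850-42567099, + strand: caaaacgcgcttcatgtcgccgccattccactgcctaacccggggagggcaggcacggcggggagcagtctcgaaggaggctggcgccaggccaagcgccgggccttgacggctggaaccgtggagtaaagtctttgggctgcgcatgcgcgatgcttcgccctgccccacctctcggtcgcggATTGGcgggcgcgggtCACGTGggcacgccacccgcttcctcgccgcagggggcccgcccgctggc
MXI1, which rose in the same comparison, held none of these motifs in its window. A link of the E-box, which 7.26% of all promoters held, to these changes was not tested.

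**Figure D2:**
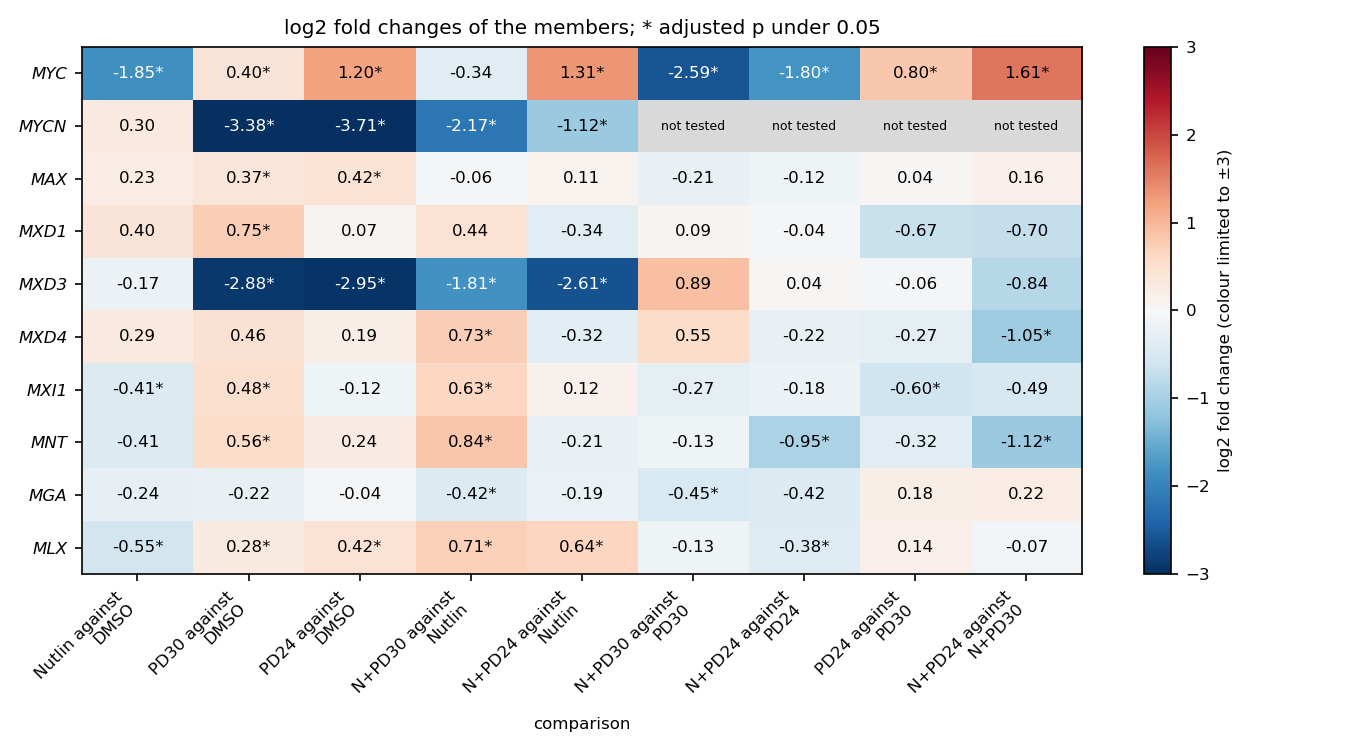
Log2 fold change of each member (rows) in each of 9 comparisons (columns), as numbers and as colour limited to 3 units in either direction, with an asterisk for adjusted p under 0.05. The asterisks of MYCN are not read as results, since it passed the filter on low values only through the groups where it was high. MYC is at -1.85, -1.80 and -2.59 in the comparisons that add Nutlin, and MXD3 is between -2.95 and -1.81 in those that add PD0332991.

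Levels of different members were compared per length, as CPM divided by the annotated exon length in kb. In DMSO, MLX stood at 31.1 ± 1.86 CPM per kb (SD, n = 3), MYC at 6.91 ± 0.944, MAX at 6.22 ± 0.108 and MXD4 at 5.45 ± 2.23. MXD3 (4.94 ± 2.25), MGA (3.72 ± 0.461), MNT (2.93 ± 0.464), MXI1 (2.77 ± 0.153), MXD1 (2.01 ± 0.222) and MYCN (0.289 ± 0.0165) followed. The mean ratio of MYC to MAX per length was 1.11 in DMSO, 1.92 in PD24, 0.26 in Nutlin and 0.217 in N+PD30. Annotated exons include isoforms that these cells may not use, so that comparisons between genes are approximate.

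The ratio of MYC to the sum of MXD1, MXD3, MXD4, MXI1 and MNT, per length, was 0.39 ± 0.0471 in DMSO and 1.06 ± 0.0959 in PD24 (SD, n = 3). It was 0.46 ± 0.0223 in PD30, 0.38 ± 0.00555 in N+PD24, 0.105 ± 0.0159 in Nutlin and 0.0656 ± 0.00676 in N+PD30. The PD24 libraries were above all others, those of Nutlin and N+PD30 were below all others, and those of N+PD24 lay within the range of DMSO. The summed repressors stood at 10.9 ± 2.41 CPM per kb in N+PD24 and 21.7 ± 0.896 in N+PD30, the lowest and highest group means.

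MXD3 contributed 26.5% ± 4.89 of the summed repressors in DMSO and 24.2% ± 1.97 in Nutlin, and 3.3% to 5.65% on average in the groups with PD0332991. MXD4 contributed 29.4% ± 4.72 in DMSO and 48.1% ± 8.07 in N+PD30. These ratios and shares are descriptions and were not tested.

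**Figure D3:**
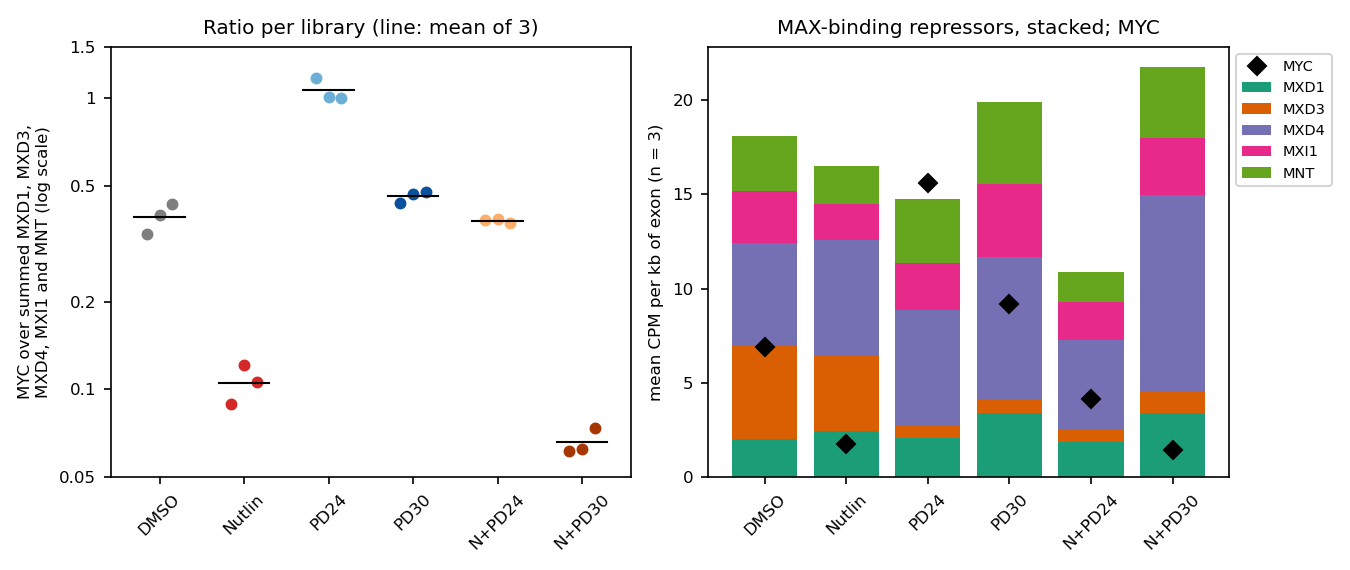
Left, the ratio of MYC to 5 summed MAX-binding repressors in each library, per length, on a log scale with the group mean as a line. Right, mean CPM per kb of the repressors as bars stacked from 0 in each group, with MYC as diamonds. The mean ratio was above 1 in PD24 (1.06) and lowest in N+PD30 (0.0656).

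The genes whose log2 CPM followed MYC most closely over the 18 libraries, among 13559 genes with a mean of at least 1 CPM, were WDR3 (Pearson r = 0.93, Spearman rho = 0.90), HOMER1 (0.93 and 0.86) and BAG2 (0.93 and 0.90). WDR3 serves in ribosome assembly, HOMER1 is a synaptic scaffold and BAG2 is a cochaperone. For MXD3 they were the DNA helicase RECQL4 (0.97 and 0.88), FBF1 (0.96 and 0.94) and KIAA0889 (0.96 and 0.92). The 18 points are 6 groups of 3, and they share treatment and sequencing depth.

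Target genes and partners of the network were described from lists compiled from general knowledge, with values for the largest called changes. Over all genes tested, 26.6% were higher and 28% lower in Nutlin against DMSO, and 24.3% and 24.7% in N+PD30 against Nutlin. These shares were 22.9% and 25.4% in PD30 against DMSO, and 17.5% and 20.8% in PD24 against DMSO. In N+PD24 against PD24 they were 16.9% and 20%, and in N+PD30 against PD30 8.84% and 5.64%. In PD24 against PD30 they were 12.9% and 12.2%, and in N+PD24 against N+PD30 15.9% and 15.6%. Of 47 tested MYC-activated targets, which serve in ribosome biogenesis, translation and metabolism, 5 were higher and 17 lower (median log2 fold change -0.18, compared with 0.03 over all genes) in Nutlin against DMSO. SLC7A5, an amino acid transporter, rose most (0.73 ± 0.16, adjusted p = 0.00295) and UMPS, an enzyme of pyrimidine synthesis, fell most (-1.33 ± 0.12, adjusted p = 1.41e-05). In cells that had received the inhibitor, 0 were higher and 21 lower (median log2 fold change -0.33, compared with 0.04 over all genes) in N+PD24 against PD24, and 2 were higher and 14 lower (median log2 fold change -0.05, compared with -0.01 over all genes) in N+PD30 against PD30. Over the alternatives, Nutlin against DMSO gave 2 to 7 higher and 15 to 26 lower, with 2 and 26 under total-count scaling and 3 higher without DMSO replicate 2 or 3 or Nutlin replicate 2. N+PD24 against PD24 gave 13 lower without N+PD24 replicate 2. N+PD30 against PD30 gave 0 to 7 higher and 4 to 15 lower over the alternatives, with 4, 6 and 7 lower without PD30 replicate 1, 2 and 3 and 5 lower without N+PD30 replicate 2.

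In PD30 against DMSO, 4 were higher and 24 lower (median log2 fold change -0.26, compared with 0.00 over all genes), and in PD24 against DMSO 15 were higher and 8 lower (median log2 fold change 0.10, compared with 0.02 over all genes). In PD24 against PD30, 26 were higher and 1 lower (median log2 fold change 0.41, compared with 0.02 over all genes). RRS1, a ribosome biogenesis factor, was among those higher (1.06 ± 0.15, adjusted p = 0.00164). In N+PD30 against Nutlin 8 were higher and 19 lower, with RRS1 at 0.78 ± 0.20 (adjusted p = 0.00861) and PTMA, which encodes prothymosin alpha, at -2.02 ± 0.14 (adjusted p = 1.29e-06). Leaving out DMSO replicate 2 gave 5 lower in PD24 against DMSO, and leaving out PD30 replicate 1 gave 17 higher in PD24 against PD30. In N+PD30 against Nutlin, leaving out Nutlin replicate 2 gave 4 higher and 11 lower, and leaving out N+PD30 replicate 2 gave 5 higher.

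In N+PD24 against Nutlin 10 were higher and 8 lower among the 47 MYC-activated targets. This is about the share of all genes, 16.9% in each direction. In N+PD24 against N+PD30 12 were higher and 3 lower, beside 15.9% and 15.6% of all genes. In the interaction of Nutlin with PD30 4 were higher and 0 lower, both below the shares of all genes (12.8% and 7.03%). In the difference between both effects of removal 0 were higher and 10 lower, beside 5.53% and 8.89% of all genes, with RRS1 at -1.20 ± 0.21 (adjusted p = 0.00317). The replicate block gave 17 higher and 13 lower in N+PD24 against Nutlin, where 6 were higher without Nutlin replicate 1 and 5 lower without Nutlin replicate 2 or N+PD24 replicate 2. The 10 lower in the difference of removal ran from 3 to 14 over the alternatives, with 3 without PD30 replicate 1, 4 without N+PD24 replicate 2, 5 without N+PD30 replicate 2, and 6 without PD30 replicate 3 or PD24 replicate 1 or 2.

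Of 12 MYC-repressed targets, 3 were higher and 3 lower (median log2 fold change 0.15, compared with 0.03 over all genes) in Nutlin against DMSO. Both counts are about the shares of all genes (26.6% higher and 28% lower). In N+PD30 against Nutlin 5 were higher and 0 lower (median log2 fold change 0.28, compared with 0.00 over all genes), beside 24.3% and 24.7% of all genes. GADD45A, a stress-response gene, rose with Nutlin (0.84 ± 0.12, adjusted p = 0.000201), where MYC fell. It rose also in PD24 against DMSO (0.78 ± 0.14, adjusted p = 0.00295), where MYC rose. A part of MYC in these changes was not tested. TXNIP, an inhibitor of glucose uptake that is also in the list of MondoA-MLX targets, fell with Nutlin alone (-1.60 ± 0.25, adjusted p = 0.000456) and in N+PD24 against PD24 (-1.22 ± 0.21, adjusted p = 0.0014). It was at -0.03 ± 0.28 (adjusted p = 0.948) in N+PD30 against PD30, and its interaction with PD30 was 1.61 ± 0.42 (adjusted p = 0.0161).

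Of 6 MondoA-MLX targets, 1 was higher and 4 lower (median log2 fold change -0.87, compared with 0.03 over all genes) in Nutlin against DMSO, and 5 were higher and 0 lower (median log2 fold change 0.57, compared with 0.02 over all genes) in PD24 against DMSO. In PD30 against DMSO 0 were higher and 2 lower, and in PD24 against PD30 5 were higher and 0 lower (median log2 fold change 0.73, compared with 0.02 over all genes). ARRDC4, an arrestin that limits glucose uptake, rose with Nutlin (0.74 ± 0.20, adjusted p = 0.0104) and was higher in PD24 than in PD30 (0.61 ± 0.16, adjusted p = 0.0195). In N+PD30 against Nutlin 2 were higher and 0 lower, led by TXNIP (1.35 ± 0.30, adjusted p = 0.00344), and in N+PD24 against N+PD30 4 were higher and 1 lower, the latter being TXNIP (-1.01 ± 0.26, adjusted p = 0.0166).

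**Figure D4:**
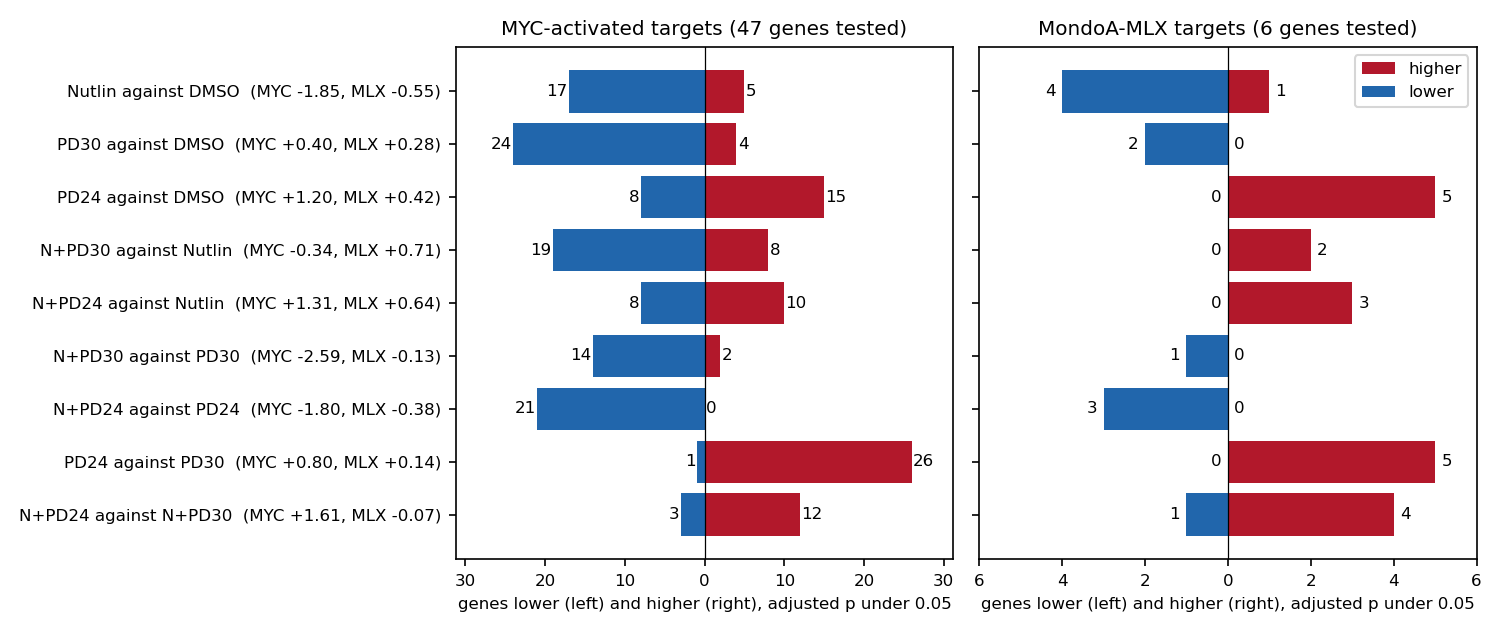
Numbers of genes called lower (left of 0) and higher (right of 0) at an adjusted p under 0.05 among MYC-activated (left panel) and MondoA-MLX (right panel) targets, by comparison, with the log2 fold changes of MYC and MLX beside each name. PD24 against PD30 called 26 MYC-activated targets higher and 1 lower, and N+PD24 against PD24 called 0 higher and 21 lower.

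Of 18 MYC cofactors, which modify chromatin or release paused polymerase, 0 were higher and 5 lower (median log2 fold change -0.12, compared with 0.03 over all genes) with Nutlin. The count of those lower is about the share of all genes called lower (28%), while 26.6% of all genes were called higher. Over the alternatives 0 to 2 of the cofactors were higher. CDK9, the kinase of P-TEFb, fell most (-0.68 ± 0.12, adjusted p = 0.000781). In N+PD30 against Nutlin 3 were higher and 4 lower (median log2 fold change -0.09, compared with 0.00 over all genes), and 2 lower without Nutlin replicate 2 or 3 or N+PD30 replicate 2, with CDK9 at 1.63 ± 0.14 (adjusted p = 6.97e-06) and ACTL6A, an actin-related subunit of chromatin remodellers, at -1.33 ± 0.12 (adjusted p = 8.1e-06). CDK9 was lower in N+PD24 than in N+PD30 (-1.39 ± 0.14, adjusted p = 0.000264).

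Of 15 genes of MYC turnover, 1 was higher and 10 lower (median log2 fold change -0.63, compared with 0.03 over all genes) with Nutlin. The gene that rose was FBXW7, the ubiquitin ligase subunit that marks MYC for degradation (1.05 ± 0.14, adjusted p = 0.000138). It rose also in N+PD24 against PD24 (1.00 ± 0.16, adjusted p = 0.000854) and in N+PD30 against PD30 (1.7 ± 0.22, adjusted p = 0.00301). USP37, a deubiquitinase, fell most with Nutlin (-1.88 ± 0.12, adjusted p = 2.34e-06). With continuous inhibitor under Nutlin, 5 were higher and 3 lower (median log2 fold change -0.10, compared with 0.00 over all genes), with the deubiquitinase USP36 at 1.34 ± 0.21 (adjusted p = 0.000444) and AURKA, a mitotic kinase that protects MYCN from degradation, at -4.11 ± 0.21 (adjusted p = 1.17e-07).

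Of 14 corepressor genes of MXD and MNT proteins, 0 were higher and 5 lower (median log2 fold change -0.15, compared with 0.03 over all genes) with Nutlin and 1 was higher and 6 lower (median log2 fold change -0.20, compared with 0.00 over all genes) in N+PD30 against Nutlin. SAP30, a subunit of the SIN3 complex, fell in both (-1.13 ± 0.17, adjusted p = 0.000314, and -1.75 ± 0.19, adjusted p = 3.72e-05), and the scaffold SIN3B was the gene that rose (0.47 ± 0.13, adjusted p = 0.0111). Total-count scaling gave 8 lower with Nutlin.

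Of 10 partners of MGA in PRC1.6, 0 were higher and 8 lower (median log2 fold change -0.50, compared with 0.03 over all genes) with Nutlin, led by PCGF6, the Polycomb ring finger subunit of this complex (-1.07 ± 0.14, adjusted p = 0.00015). For N+PD30 against Nutlin, 1 was higher and 4 lower (median log2 fold change -0.16, compared with 0.00 over all genes), with the ubiquitin ligase RING1 at 0.63 ± 0.13 (adjusted p = 0.00226) and the chromatin reader CBX1 at -1.10 ± 0.12 (adjusted p = 3.56e-05).

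Of 8 tested genes of the wider MYC network, 0 were higher and 4 lower (median log2 fold change -0.33, compared with 0.03 over all genes) with Nutlin, led by TFEB, a regulator of lysosomal genes (-1.17 ± 0.31, adjusted p = 0.00916). Between N+PD30 and Nutlin, 5 were higher and 2 lower (median log2 fold change 0.48, compared with 0.00 over all genes), with TFEB at 1.24 ± 0.33 (adjusted p = 0.0095) and MYCL1, a further MYC paralog, at -1.22 ± 0.34 (adjusted p = 0.0125). Without N+PD30 replicate 2, 3 were higher.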

How the data were processed

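The authors made RNA-seq libraries with a TruSeq RNA LT kit and sequenced single 50 bp reads. Per the labels, reads were mapped to hg19 with TopHat and Bowtie2 and counted with HTSeq 0.6.0, which per the methods used the reverse strand setting. The sources used here do not state whether the kit marks strand. The authors deposited counts for 5 groups and, for N+PD24, a signal of counts divided by a factor per library, of which 100% of values above 0 gave whole reads (tolerance 0.001 reads). A deposited comparison of Nutlin with DMSO, which holds fold changes and p-values, was not used.

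CPM were computed over all rows, of which 28 carry date names, and carry no TMM factor. Statements that libraries lay above or below others are in CPM. Counts were tested with edgeR 4.0.16 (quasi-likelihood test, TMM, R 4.3.3), with low values filtered by its filterByExpr function. Comparisons with N+PD24 were tested with limma 3.58.1 on log2 CPM with 0.1 added, for genes at 0.3 CPM in at least 3 libraries. Only compared groups entered a fit. Errors beside log2 fold changes are SE. The tests were checked on simulated counts.

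The members and lists were chosen with earlier results of these data known. Named were all members, the largest called change of each list and direction in Nutlin against DMSO and N+PD30 against Nutlin, and the 3 genes most like MYC and MXD3. The list of drug targets and readouts is not reported in full here. Alternatives were total-count scaling, quantile normalization, no filter, a log2 threshold of 1, DESeq2 1.42.0, 1 CPM added, edgeR on recovered reads, all libraries in a single fit, a replicate block and leaving out each replicate. The removal comparison and the block on recovered reads were added after seeing the data. Same-numbered samples deviated together, with correlations from 0.17 to 0.58, in N+PD24 against Nutlin, N+PD30 against PD30, N+PD24 against PD24 and PD24 against PD30, so that the numbers were taken to pair these samples. N+PD30 replicate 1, however, correlated more with a PD30 library of another number (0.34) than with PD30 replicate 1 (0.17). The main values of these comparisons come from fits without the block, which is given as an alternative. In each of the other comparisons of 2 groups at least 1 same-numbered pair correlated under 0.1. In the interaction with removal, 5 of 6 group pairs had every correlation over 0.1, and its block is given in the closing section.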

Additional observations from a re-analysis of the deposited data

Results flagged for a closer look

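The response of MLX to Nutlin differed with continuous PD0332991, by an interaction of 0.47 on the log2 scale (edgeR, adjusted p = 0.0228), a call lost in 5 of 18 alternatives. The effect of removing the inhibitor differed with Nutlin for MNT (-0.84, limma, adjusted p = 0.0143) and for MYC (0.75, limma, adjusted p = 0.0482). The call of MYC was lost in 13 of 20 alternatives and that of MNT in 0 of 20. All 3 N+PD24 libraries lay below the N+PD30 libraries for MNT and above them for MYC.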

How the results depend on the processing

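Of 522 alternative values for 40 called member results, 467 kept their call, 55 lost it and 0 changed direction, and 27 results were called under all their alternatives. These numbers and the member counts that follow include MYCN, which passed the filter only through the DMSO or Nutlin libraries. Of uncalled values, MXD3 in Nutlin against DMSO (-0.17) became 0.11 under quantile normalization and ran from -0.40 to 0.26 over left-out replicates (0.009 without Nutlin replicate 1), and MYC in the interaction of Nutlin with PD24 (0.09) ran from -0.18 to 0.27, at -0.02 without DMSO replicate 1 or N+PD24 replicate 3. With a log2 fold change over 1 as a further limit, members called were 1 in Nutlin against DMSO, 2 in PD30 against DMSO, 3 in PD24 against DMSO, 2 in N+PD30 against Nutlin, 1 in N+PD30 against PD30, 1 in N+PD24 against PD24, 0 in PD24 against PD30, and 0 in the interactions with PD30 and with removal. DESeq2 called 4 in N+PD30 against PD30 and 2 in the interaction with PD30. All libraries in a single fit gave 5 in N+PD24 against PD24, 2 in the interaction with PD30 and 1 in that with removal, where total-count scaling, no filter and 1 CPM added also gave 1. The replicate block, for numbers that pair the samples, called 4 in N+PD30 against PD30 and 4 in PD24 against PD30, and changed no call beyond those named above. In the other comparisons of 2 groups, not every same-numbered pair correlated over 0.1, and the block added MXD1 in Nutlin against DMSO and in N+PD24 against N+PD30. Over left-out replicates, members called ran 2 to 5 in Nutlin against DMSO, 1 to 4 in N+PD30 against PD30, 1 to 3 in PD24 against PD30, 3 to 5 in N+PD24 against N+PD30, 0 to 2 in the interaction with PD30 and 1 to 2 in that with removal.

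Over all genes, the block moved calls from 2720 higher and 2726 lower to 4270 higher and 4146 lower in N+PD24 against Nutlin, from 1333 higher and 850 lower to 2250 higher and 2125 lower in N+PD30 against PD30, from 1963 higher and 1853 lower to 3120 higher and 2987 lower in PD24 against PD30, from 90 higher and 58 lower to 196 higher and 123 lower in the interaction with PD24, and from 894 higher and 1438 lower to 1699 higher and 2384 lower in that with removal. Over left-out replicates, they ran from 440 higher and 143 lower without PD30 replicate 1 to 2031 higher and 1353 lower without N+PD30 replicate 3 in N+PD30 against PD30 (also 478 higher and 147 lower without N+PD30 replicate 2, 1067 higher and 428 lower without N+PD30 replicate 1, 835 higher and 229 lower without PD30 replicate 3 and 858 higher and 292 lower without PD30 replicate 2). They fell to 1556 higher and 2346 lower from 2639 higher and 3142 lower in PD24 against DMSO without DMSO replicate 2, to 1763 higher and 2062 lower without Nutlin replicate 2 and 1796 higher and 2163 lower without N+PD24 replicate 2 in N+PD24 against Nutlin, to 1264 higher and 2029 lower in N+PD24 against PD24, 1386 higher and 1475 lower in N+PD24 against N+PD30 and 377 higher and 866 lower in the removal interaction without N+PD24 replicate 2, to 1693 higher and 1502 lower in N+PD24 against N+PD30 without N+PD30 replicate 2, to 1115 higher and 1063 lower without PD30 replicate 1 and 1251 higher and 1269 lower without PD30 replicate 3 in PD24 against PD30, and to 502 higher and 792 lower without PD30 replicate 1, 557 higher and 974 lower without PD24 replicate 2, 579 higher and 1418 lower without N+PD24 replicate 3 and 748 higher and 903 lower without N+PD30 replicate 2 in the removal interaction. The interaction with PD24 moved by over 1.5 times without any 1 of 11 libraries, and fell as low as 37 higher and 6 lower, without DMSO replicate 2. With 1 CPM added, it called 164 higher and 124 lower. Total-count scaling moved the share of calls that were higher from 48.7% to 36.7% in Nutlin against DMSO, 61.1% to 43.8% in N+PD30 against PD30, 45.8% to 31.2% in N+PD24 against PD24 and 50.5% to 38.8% in N+PD24 against N+PD30, and the median of all genes in Nutlin against DMSO from 0.03 to -0.10 (with DESeq2 0.16), in N+PD24 against PD24 to -0.10 and in N+PD24 against N+PD30 to -0.09. Quantile normalization moved that share from 47.5% to 58.2% in PD30 against DMSO, 45.6% to 55.8% in PD24 against DMSO, 64.5% to 50.2% in the interaction with PD30 and 38.3% to 48.4% in that with removal. The causes were not tested. Depth limits MYCN, with at most 30 counts in a library of the DMSO and Nutlin groups.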
